A study of Mus musculus with 6 samples.

Results

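The genes described here are 8 genes of antigen presentation by MHC class II: H2-Aa, H2-Ab1, H2-Eb1, Cd74, Ciita, H2-DMa, H2-DMb1 and H2-DMb2. They were taken by symbol from count tables of 23282 rows, and each has 1 row. The tables come from 6 libraries of primary acinar cells, the enzyme-secreting cells of the exocrine pancreas, from mice of strain C57BL/6J. In 3 libraries the genotype was ERRgamma -/-, a conditional knock-out (cKO) of Esrrg, the gene of the nuclear receptor ERRgamma, and in 3 control libraries it was wild type. All 6 cultures shared Waymouth's medium with serum, penicillin and streptomycin, a trypsin inhibitor and human epidermal growth factor, followed by Trizol extraction and a Lexogen QuantSeq kit, which counts 1 tag near the 3' end of a transcript. The way of deletion, any Cre driver, the time in culture, the age and sex of the mice, the purity of the cells and whether the numbered libraries stem from separate animals could not be learned from the labels. The p-values below rest on the spread among the 6 libraries, and that spread may be a technical one.

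MHC class II molecules show peptides of proteins taken up by a cell to CD4 T cells. An alpha chain (H2-Aa) and a beta chain (H2-Ab1) form the I-A molecule, and H2-Eb1 is the beta chain of I-E; mice with the haplotype of C57BL/6 make no functional I-E alpha chain. The invariant chain, encoded by Cd74, blocks the groove and guides the pair to endosomes, where the H2-DM dimer (H2-DMa with H2-DMb1 or H2-DMb2) exchanges its remnant for peptide. Ciita encodes the coactivator that switches these genes on. It does not bind DNA itself but docks on RFX, CREB and NF-Y proteins at the X and Y boxes of class II promoters. Macrophages, dendritic cells and B cells are the classic sources of class II, and interferon gamma can induce it in other cells.

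Promoter sequences are shown for the X and Y boxes, at which the product of Ciita acts on class II promoters. RefSeq windows of build GRCm38.p6 were at hand for 5 of the 8 genes, H2-Aa, H2-Eb1, H2-DMa, H2-DMb1 and H2-DMb2. Each sequence printed runs 5′ to 3′ on the gene's own strand, is 145 bases long and ends 10 bases after the gene's start in RefSeq. For H2-DMb1 and H2-DMb2 that start lies inside the GENCODE gene span given further below. Capitals mark the Y box TGATTGG and the X-box core CTNGNAAC, the letters searched on both strands.
H2-Aa, chr17:34287814-34287958, minus strand: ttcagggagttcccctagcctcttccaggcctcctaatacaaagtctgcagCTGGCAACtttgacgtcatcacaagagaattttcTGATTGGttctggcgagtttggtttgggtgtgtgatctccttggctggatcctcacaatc
H2-Eb1, chr17:34305732-34305876, plus strand: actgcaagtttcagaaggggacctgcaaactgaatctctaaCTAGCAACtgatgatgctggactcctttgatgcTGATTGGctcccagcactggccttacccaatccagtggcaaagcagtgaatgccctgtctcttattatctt
H2-DMb1, chr17:34153056-34153200, plus strand: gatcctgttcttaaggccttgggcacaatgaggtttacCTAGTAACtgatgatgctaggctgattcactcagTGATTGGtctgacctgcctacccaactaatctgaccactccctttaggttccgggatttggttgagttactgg
H2-DMb2, chr17:34145114-34145258, plus strand: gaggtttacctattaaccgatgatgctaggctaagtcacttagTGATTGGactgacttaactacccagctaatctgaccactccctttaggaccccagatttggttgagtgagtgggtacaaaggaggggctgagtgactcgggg
In H2-Aa and H2-DMb1 the Y box began 34 bases after the start of the X-box core, and in H2-Eb1 it began 33 bases after it. H2-DMb2 had the Y box and no match to the X-box core letters, and the windows of H2-DMa had neither. Of 32851 promoter windows of 300 bases in the same table, 7.82% held the Y box, 13.2% held the X-box core, and 17 windows (0.0517%) held the core before the Y box within 40 bases. The letters were chosen after these windows had been seen, so the shares are a description, and a match is neither a site of binding nor a cause of any level.

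Before scaling, the libraries held 15.2 to 17.0 M counts (M, mega) in cKO and 23.01 to 25.2 M in controls. A list of secretory genes, digestive enzymes among them, also held the Rn45s row. It took 27.8%, 59.8% and 31.8% of all counts in cKO libraries 1 to 3, against 85.0% to 86.2% in controls. The TMM scaling, which centres most genes near no change, gave an effective size of 50.8 ± 15.3 M in cKO and 7.96 ± 0.489 M in controls (SD, n = 3 each). CPM below are counts per M of this effective size. All 11 acinar markers were detected in every library, and their summed level was 17090, 86960 and 24140 CPM in cKO against 566500 to 673400 CPM in controls. All 11 fell in cKO. cKO replicate 2 thus stood apart from the other two cKO libraries, and class II fold changes without it are given below. Esrrg itself had 0, 9 and 1 counts in cKO and 0 counts in each control library. With 0 counts in every control library, a loss in cKO could not be seen. Whether the 3' tag lies outside the deleted part is not given either, so these counts check no label. Esrrg was not tested.

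Class II genes were higher in the cKO libraries in every tested case. Of the 8 genes, 7 passed the filter on low counts and all 7 rose in cKO, at log2 fold changes of 2.51 to 3.47, with edgeR's quasi-likelihood test and Benjamini-Hochberg adjustment over 13132 genes at a threshold of 0.05. In the same test 24.0% of all genes rose and 20.7% fell, and the median log2 fold change of all tested genes was 0.10. In all 7, every cKO library lay above every control library, which held for 30.7% of tested genes. H2-DMa and Ciita reached the filter's limit in 1 and 0 control libraries and passed it through the cKO libraries, so the filter itself favoured a rise for that pair. The other 5 reached it in all 6 libraries, and their median log2 fold change was 3.23. In bulk RNA of this kind, more cells of a type and more RNA per cell cannot be told apart.

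**Figure D1:**
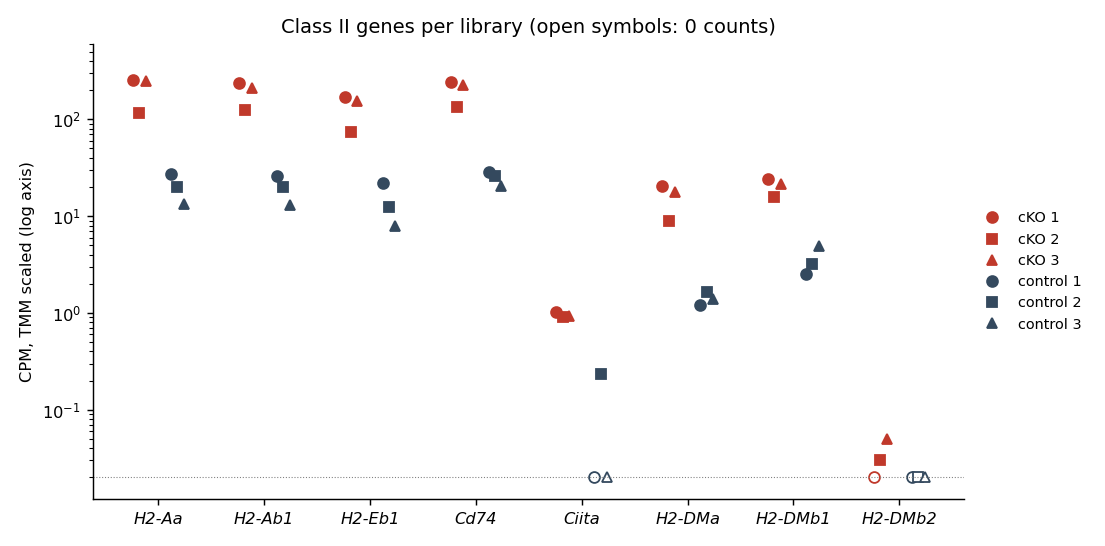
TMM-scaled CPM on a log axis of the 8 class II genes in 3 cKO libraries (red, left) and 3 control libraries (dark, right), 1 symbol per library, with open symbols on the dotted line for 0 counts. In the 7 tested genes every cKO symbol stands above every control symbol, and H2-DMb2 is at or near 0 counts throughout.

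Ciita, the coactivator of the class II promoters, was a rare transcript in both groups. It had 1.03, 0.905 and 0.934 CPM in cKO libraries 1 to 3, from 61, 30 and 56 counts, against 0, 0.236 and 0 CPM in controls, where 1 library held 2 counts and the other two held 0. The cKO libraries were alike and did not overlap with the controls, which lay below the 3-count floor of 0.353 to 0.399 CPM. The ratio of cKO to control over the pooled counts was 11.5, with a 95% counting interval of 3.13 to 96.0, which like the floors covers counting error only. The fitted log2 fold change was 3.46 ± 0.98 (SE; adjusted p = 0.00970, edgeR), and without control replicate 2, when all remaining control counts are 0, it was 8.01, a value set by the prior and no bound. On GRCm38 (GENCODE M21) Ciita lies at chr16:10480059-10528418 on the plus strand and shares 25888 bases with Dexi on the minus strand. Dexi went the other way, with 5.68, 7.96 and 5.32 CPM in cKO against 34.8, 36.2 and 28.3 CPM in controls (log2 fold change -2.40 ± 0.20). Whether the counting used the strand is not given, so reads of the overlap cannot be assigned with certainty.

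The 3 genes of the peptide-binding chains rose by nearly the same amount. H2-Aa, the I-A alpha chain at chr17:34282744-34287823, had 255, 116 and 252 CPM in cKO against 27.4, 20.1 and 13.5 CPM in controls. The lowest cKO library, replicate 2, was above the highest control. Its log2 fold change was 3.35 ± 0.36 (adjusted p = 5.21e-05, edgeR), a 10.2-fold higher level. H2-Ab1, the I-A beta chain at chr17:34257689-34269419, had 234, 126 and 210 CPM in cKO against 25.8, 19.9 and 13.1 CPM in controls. Again cKO replicate 2 was the lowest of its group and control replicate 3 the lowest of all 6 libraries. The log2 fold change was 3.28 ± 0.29 (adjusted p = 3.29e-06, edgeR).

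H2-Eb1, the I-E beta chain at chr17:34305867-34316674, followed the I-A chains although its alpha partner is not made in this haplotype. It had 169, 73.3 and 153 CPM in cKO against 21.8, 12.5 and 8.002 CPM in controls. The groups did not overlap, and the order of libraries within the controls was that of the I-A chains. Its log2 fold change was 3.23 ± 0.47 (adjusted p = 0.00144, edgeR), with the widest error of the 4 abundant genes. The row of the I-E alpha pseudogene H2-Ea-ps had 0 counts in all 6 libraries. H2-Eb1 shares 2204 bases with the antisense gene Gm20513.

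Cd74, the invariant chain at chr18:60803848-60812652, had 245, 133 and 229 CPM in cKO against 28.3, 26.3 and 20.4 CPM in controls. The cKO libraries lay well apart from the controls, and the controls were closer together than for the chains. The log2 fold change was 3.02 ± 0.24 (adjusted p = 7.57e-07, edgeR), an 8.09-fold higher level. Unscaled, H2-Aa, H2-Ab1, H2-Eb1 and Cd74 together made up 3534, 876 and 3093 of every M counts in cKO against 31.8, 26.6 and 18.8 in controls.

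The genes of the peptide editor H2-DM differed widely in level. H2-DMa, its alpha chain at chr17:34119541-34139101, had 20.7, 8.81 and 17.8 CPM in cKO against 1.196, 1.65 and 1.40 CPM in controls, where it had 9, 14 and 11 counts. cKO replicate 2 was again the lowest cKO library, still above all controls. The log2 fold change was 3.47 ± 0.36 (adjusted p = 4.50e-06, edgeR). H2-DMa shares 3094 bases with Brd2 on the other strand, whose log2 fold change was -0.41 ± 0.16.

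H2-DMb1, the beta chain at chr17:34153072-34160230, had 24.1, 15.6 and 21.2 CPM in cKO against 2.53, 3.18 and 4.95 CPM in controls. Here control replicate 3 was the highest control, the reverse of the chains, and the groups did not overlap. The log2 fold change of 2.51 ± 0.26 (adjusted p = 3.99e-06, edgeR) was the smallest of the 7. Counts of H2-DMb1 per count of H2-DMa were 1.16, 1.77 and 1.197 in cKO against 2.11, 1.93 and 3.55 in controls, with every cKO library below every control. H2-DMb2, its near copy at chr17:34143307-34151555, had 0, 1 and 3 counts in cKO and 0 counts in all controls, too few for a test or a fold. The transcripts of the pair were 94.6% identical over 1219 aligned bases and 75.8% identical over 273 aligned bases of the last 300, so tags of the pair can be confused or dropped.

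**Figure D2:**
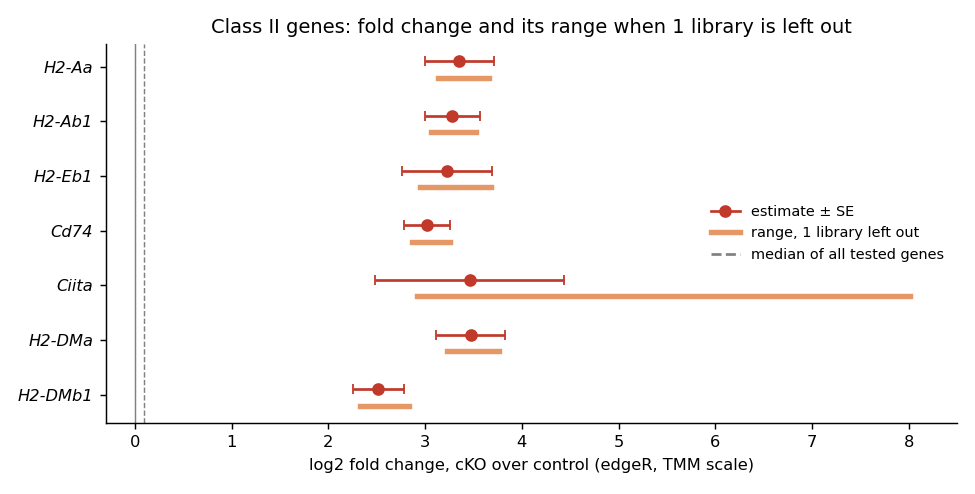
Log2 fold change of cKO over control with its SE (edgeR, TMM scale) for the 7 tested class II genes, with the range over fits that leave out 1 library (orange) and the median of all tested genes (dashed). The estimates lie between 2.51 and 3.47, and the long range of Ciita ends at 8.01, the fit without the control library that held its only 2 control counts.

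The fold changes were larger without cKO replicate 2: 3.66 for H2-Aa, 3.52 for H2-Ab1, 3.53 for H2-Eb1, 3.26 for Cd74, 3.77 for H2-DMa and 2.68 for H2-DMb1 on the log2 scale. Ciita was 3.51 in that fit. All 7 stayed past the threshold in each fit that left out 1 library, with adjusted p-values up to 0.0402 across these and the other alternatives. On library totals in place of TMM the same genes were 5.84 to 6.85 higher on the log2 scale. On that scale the median of all tested genes was itself at 3.36 and 99.6% of calls were rises, against 53.7% on the TMM scale, so the members stood above the bulk of genes on either scale.

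Within the class II genes, the ratios of chain transcripts overlapped between the groups. Counts of H2-Aa per count of H2-Ab1 were 1.09, 0.925 and 1.196 in cKO against 1.06, 1.01 and 1.03 in controls. Counts of H2-Eb1 per count of H2-Ab1 were 0.720, 0.584 and 0.726 in cKO against 0.845, 0.627 and 0.612 in controls. Both ratios overlapped between groups, as did Cd74 per summed chain count, at 0.372 to 0.423 in cKO against 0.378 to 0.592 in controls. These ratios are taken within a library and do not depend on its scaling. The lowest correlation between log2 levels of any pair of H2-Aa, H2-Ab1, H2-Eb1 and Cd74 over the 6 libraries was 0.986, a description that the difference between groups dominates.

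Class II transcripts were then set against transcripts of blood-derived cells in the same library. All 8 leukocyte markers rose, at a median log2 fold change of 2.58, as did all 11 tested macrophage markers (2.98) and all 6 monocyte markers (2.86). Of all tested genes 24.0% rose, the share to set beside these and the marker counts that follow. The filter's limit was reached in every control library by 5 of the leukocyte, 9 of the macrophage and 3 of the monocyte markers. Summed leukocyte markers were 437, 204 and 341 CPM in cKO against 68.1, 60.6 and 46.9 CPM in controls, so they were lowest in the same cKO library as class II. Counts of H2-Aa, H2-Ab1, H2-Eb1 and Cd74 per leukocyte marker count were 2.07, 2.20 and 2.47 in cKO against 1.52, 1.30 and 1.17 in controls, a mean of 2.25 ± 0.208 against 1.33 ± 0.174 (SD, n = 3 each). The ratio in cKO was thus 1.69 times that in controls, and it was 1.61 times with the 12 macrophage markers as denominator, with no overlap in either case. The size of this excess depends on the markers chosen. Mean summed CPM were 9.14-fold higher in cKO for the class II members and 7.56-fold for monocyte markers. They were 5.60-fold higher for leukocyte and 5.81-fold for macrophage markers. Within the macrophage list, C1qb rose 8.75-fold and C1qa 4.03-fold, where Cd74 rose 8.09-fold. Per count of Ptprc (CD45), class II was 25.7, 34.0 and 29.8 in cKO against 17.7, 19.1 and 43.3 in controls. These overlapped through control replicate 3, which held 10 Ptprc counts against 44 and 35 in control replicates 1 and 2. Whether leukocyte content accounts for the class II rise was not tested.

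**Figure D3:**
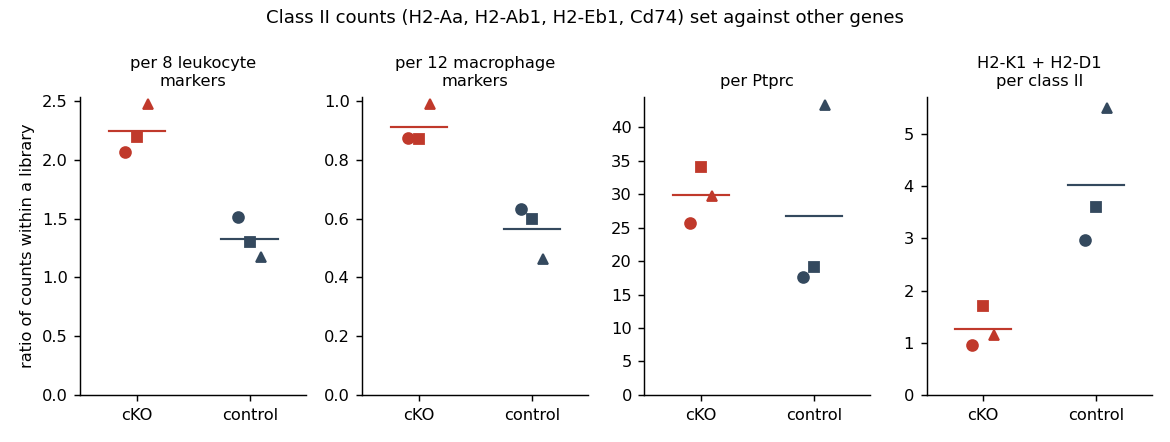
Ratio of counts within each library for 3 cKO (red, left) and 3 control libraries (dark, right), with symbols for libraries and lines for group means, from an axis at 0. Class II counts per leukocyte and per macrophage marker count are higher in every cKO library, per Ptprc the groups overlap, and H2-K1 with H2-D1 per class II count is lower in every cKO library.

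The marker lists of the classic class II cells differed in depth. Macrophage complement genes were abundant: C1qa had 186, 107 and 151 CPM in cKO against 44.8, 31.9 and 33.5 CPM in controls, and C1qb had 240, 129 and 199 CPM in cKO against 25.3, 21.7 and 18.0 CPM in controls. Their log2 fold changes were 2.01 ± 0.21 and 3.13 ± 0.23. Summed macrophage markers were 1032, 514 and 853 CPM in cKO against 163, 132 and 118 CPM in controls. The monocyte genes Plac8 and F13a1 rose by 3.03 ± 0.45 and 2.65 ± 0.23, and the leukocyte genes Laptm5 and Fcer1g by 2.25 ± 0.20 and 2.58 ± 0.31.

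Of 10 dendritic cell markers, 9 were tested and 7 rose, but 8 of the 9 did not reach the filter's limit in every control library. Clec10a, a lectin of dendritic cells and macrophages, had 52.9, 36.0 and 69.6 CPM in cKO against 7.18, 4.36 and 5.84 CPM in controls (log2 fold change 3.19 ± 0.26), and the integrin Itgax rose by 2.07 ± 0.40. The dendritic cell factor Zbtb46 was at 0.758 to 1.32 CPM in cKO against 1.40 to 1.77 CPM in controls, with no call.

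B cell markers were near the floor. Their summed level was 5.29, 6.33 and 12.9 CPM in cKO against 7.98, 3.42 and 1.14 CPM in controls, which overlapped, and the defining factor Pax5 had 0 counts in all 6 libraries. Of 7 tested B cell markers 1 rose, Blk, which had no control count, and Cd79b (log2 fold change 1.42 ± 0.69) and Cr2 (0.85 ± 0.93) had no call. None of the 7 reached the filter's limit in every control library, and without control replicate 1 Cd79b was at 2.70 and was called higher (adjusted p = 0.0239, edgeR). Summed T and NK markers were 10.9, 8.05 and 10.02 CPM in cKO against 5.45, 2.24 and 0.762 CPM in controls. Of 6 tested, 3 rose, but none of the 6 reached the filter's limit in every control library. Nkg7, 1 of the 3, passed through its cKO counts, with 4, 0 and 0 counts in controls. Its fitted log2 fold change was 3.95 ± 0.80, and 9.50 without control replicate 1, a value set by the prior and no bound. Lck was at 0.92 ± 0.68, or 1.69 without control replicate 1, with no call in either fit.

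**Figure D4:**
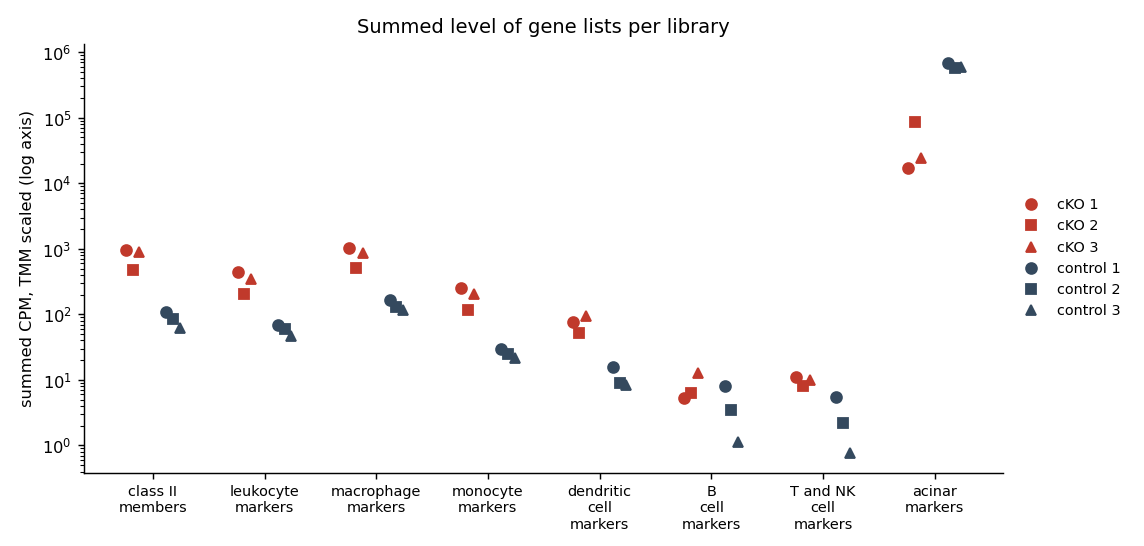
Summed TMM-scaled CPM on a log axis of the class II genes and of marker lists in 3 cKO (red, left) and 3 control libraries (dark, right). Class II, leukocyte, macrophage, monocyte and dendritic sums are higher in every cKO library, B cell sums overlap, and acinar sums are lower in every cKO library.

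Markers of other pancreas cells were read beside these, where 24.0% of all tested genes rose and 20.7% fell. All 6 fibroblast markers rose, with Col1a2 at 2.37 ± 0.26 and Col3a1 at 2.71 ± 0.25 on the log2 scale. No endothelial marker rose and 3 of 6 fell, among them Kdr (-1.37 ± 0.21), with no call for Pecam1 (-0.55 ± 0.25). Without cKO replicate 2, Pecam1 was called lower, at -0.80 (adjusted p = 0.0124, edgeR). Of 4 tested duct markers 2 rose and Sox9 fell (-1.82 ± 0.17), with no call for Spp1 (-0.15 ± 0.16). Of 6 islet markers 1 fell, and the insulin genes Ins1 (-0.29 ± 0.27) and Ins2 (-0.05 ± 0.26) had no call. The acinar zymogens Ctrb1 and Prss2 fell by 3.68 ± 0.92 and 4.70 ± 0.87. Without cKO replicate 2 they were at -4.76 and -5.90, and on library totals Ctrb1 was at -0.74 and lost its call (adjusted p = 0.115, edgeR). The part of these shifts in the class II levels was not tested.

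The remaining class II chains were rare, and all 3 tested passed the filter through their cKO counts, reaching its limit in 0 control libraries, so their calls are a description. H2-Oa and H2-Ob form H2-DO, which holds H2-DM in check in B cells and some dendritic cells. H2-Ob had 1.65, 1.12 and 2.94 CPM in cKO against 0.399, 0 and 0 CPM in controls, a counting ratio of 16.2 (95% interval 5.51 to 79.2) and an adjusted p of 0.00278 (edgeR). H2-Oa had 1.25, 0.603 and 0.917 CPM in cKO against 0.399, 0 and 0 CPM in controls, a counting ratio of 7.78 (2.61 to 38.2). Its adjusted p of 0.0300 was lost without cKO replicate 1 or 3 or control replicate 2 or 3, at 0.0796 to 0.110. H2-Eb2 had a log2 fold change of 1.24 ± 1.04 and no call. All control counts of these 3 genes lay in control replicate 1, and without it the fitted values, set by the prior, were 9.02 for H2-Ob, 7.98 for H2-Oa and 6.79 for H2-Eb2 (adjusted p = 0.0536, no call).

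The DNA-binding factors of the class II promoter had no common direction. Of 7 tested, 1 rose, 1 fell and 5 had no call, at a median log2 fold change of 0.22. Over all tested genes 24.0% rose and 20.7% fell, so these counts do not set the list apart. The RFX subunit gene Rfxap fell, with 2.86, 3.08 and 2.97 CPM in cKO against 6.65, 6.13 and 7.62 CPM in controls (-1.19 ± 0.26; adjusted p = 0.00173, edgeR). Rfx5, the subunit that contacts the X box, had 3.93, 6.15 and 5.37 CPM in cKO against 4.65, 2.24 and 1.65 CPM in controls, which overlapped (0.86 ± 0.37; adjusted p = 0.0697). It passed the threshold without cKO replicate 1 (adjusted p = 0.0461) or control replicate 1 (0.0127). Of the Y-box factor NF-Y, Nfya rose (1.95 ± 0.51), from 11, 6 and 2 control counts that did not reach the filter's limit, and was at 2.67 without control replicate 1. Nfyb was at -0.41 ± 0.21 with no call, and without cKO replicate 2 it was called lower, at -0.57 (adjusted p = 0.0298).

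Peptide supply split by protease. Cathepsin S (Ctss), which trims the invariant chain in antigen-presenting cells, had 193, 82.7 and 168 CPM in cKO against 23.7, 26.9 and 30.7 CPM in controls (log2 fold change 2.45 ± 0.28; adjusted p = 2.23e-05, edgeR). Its counts per 100 summed chain counts were 29.4, 26.2 and 27.3 in cKO against 31.6, 51.1 and 89.0 in controls, lower in every cKO library. The endosomal protease gene Lgmn rose by 2.71 ± 0.28, while cathepsin L (Ctsl), which does that trimming in thymic epithelium, fell by 1.01 ± 0.17 and the endosomal tetraspanin Cd63 by 0.73 ± 0.17. The other 2 of 6 had no call, where 24.0% of all tested genes rose and 20.7% fell.

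Of 7 tested genes of costimulation and class II turnover, 6 rose and 1 had no call, where 24.0% of all tested genes rose. Cd86, a ligand of CD28, had 120, 52 and 126 counts in cKO against 1, 0 and 0 in controls, a counting ratio of 46.7 (95% interval 8.31 to 1850). Cd83, which protects class II from turnover, had 33.8, 23.9 and 35.9 CPM in cKO against 3.99, 5.07 and 4.70 CPM in controls (2.76 ± 0.22). The costimulatory receptor gene Cd40 rose by 2.93 ± 0.58, and March1, whose ubiquitin ligase removes class II from the surface, rose by 2.65 ± 0.50, or 3.39 without control replicate 1. Cd83 and 1 other of these 7 reached the filter's limit in every control library, while Cd86, Cd40 and March1 reached it in 0 of them.

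Genes of the interferon gamma pathway, the classic inducer of Ciita, mostly rose in cKO. Of 9 tested, 8 rose and 1 had no call, at a median log2 fold change of 1.62, where 24.0% of all tested genes rose. Among the risers, Jak1 overlapped between the groups and was near the threshold (adjusted p = 0.0470, edgeR). In every control library 8 of the 9 reached the filter's limit, and 7 of these rose. Ifng itself had 44, 0 and 18 counts in cKO against 2, 0 and 0 in controls, and was not tested. Irf1, a factor that acts on a Ciita promoter, had 42.3, 28.2 and 47.5 CPM in cKO against 11.7, 13.8 and 12.8 CPM in controls (1.62 ± 0.20). The receptor chain Ifngr1 rose by 1.598 ± 0.21, the myeloid factor Irf8 by 2.18 ± 0.26 and the interferon-induced GTPase Gbp2 by 1.999 ± 0.26.

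Class I presentation, which shows peptides of a cell's own proteins to CD8 T cells and is made by nearly all cells, rose for most of its genes. Of 13 tested genes, 9 rose, 1 fell and 3 had no call, at a median log2 fold change of 1.62, where 24.0% of all tested genes rose. In every control library 9 of the 13 reached the filter's limit. Of those 9, 7 rose, and their median log2 fold change was 1.44. The light chain B2m rose by 2.38 ± 0.25, the peptide pump Tap1 by 2.42 ± 0.25 and the immunoproteasome subunit Psmb8 by 2.65 ± 0.24. Psmb10, another immunoproteasome subunit, fell by 2.67 ± 0.22. On the same strand it is followed by Ctrl, a digestive enzyme gene named here after its value was seen, which fell by 4.09 ± 0.78. Whether the falls of Psmb10 and Ctrl are linked was not tested. Counts of H2-K1 and H2-D1 per class II count were 0.959, 1.71 and 1.14 in cKO against 2.97, 3.60 and 5.49 in controls, lower in every cKO library.

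**Figure D5:**
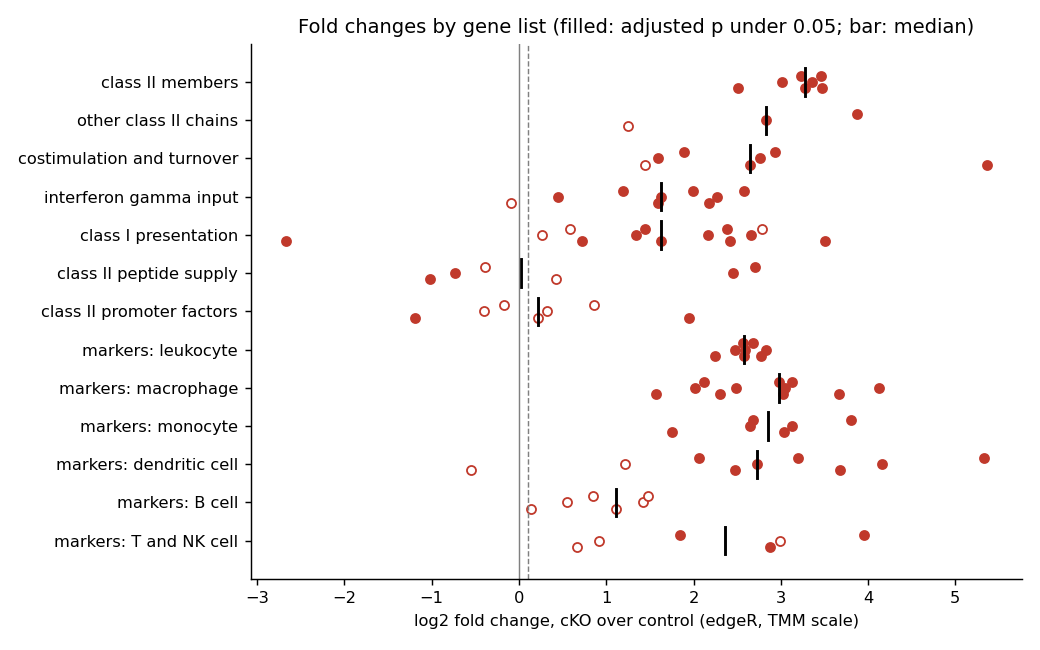
Log2 fold change of cKO over control (edgeR, TMM scale) for tested genes of each list, filled where the adjusted p was under 0.05, with a bar at the list's median and a dashed line at the median of all tested genes; Blk, with no control count, is counted in its median and not drawn. Class II genes cluster at 2.51 to 3.47, promoter factors scatter around 0, and values above 5 belong to genes with 1 control count.

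The genes with levels most like those of the 4 abundant members were found among 4311 named genes, by Pearson's r over the 6 libraries with the mean log2 CPM of H2-Aa, H2-Ab1, H2-Eb1 and Cd74. The highest r belonged to Jarid2 (0.998), Ehd4 (0.998), Samhd1 (0.998), Sash1 (0.998), Bhlhe40 (0.998) and Ifi27l2a (0.998), and 75 genes reached 0.99. Ifi27l2a, an interferon-induced gene, had 124, 53.1 and 93.3 CPM in cKO against 11.3, 7.78 and 4.32 CPM in controls. Jarid2, a partner of the PRC2 complex, had 16.5, 13.4 and 15.9 CPM in cKO against 9.57, 8.48 and 7.62 CPM in controls. All 6 libraries enter r, so the difference between groups sets most of it, and genes with a small fold change can match as well as those with a large one.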

How the data were processed

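Per the labels, the authors made 3' tag libraries from total RNA. The deposited values are unnormalized counts, with 23237 distinct symbols on the 23282 rows of each library's table. The submitters' processing notes name Bowtie2 and edgeR, with mm10 and GRCm38 as builds. How reads were counted, the strand setting and any filters are not given in the sources used.

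Counts were tested with edgeR 4.0.16 in R 4.3.3 (filterByExpr minimum count 10, minimum total 15, TMM factors, glmQLFit with robust estimation, glmQLFTest), with Benjamini-Hochberg adjustment over all tested genes. SEs are the log2 fold change over the root of F. CPM use TMM-scaled library sizes, and log2 CPM a prior count of 2. The fit was tested on simulated data. A floor is 3 counts in a library. Coordinates come from GENCODE M21 and promoters from RefSeq, both on GRCm38.

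The members and lists were chosen with earlier results of these data known. Besides the members and Esrrg, named genes were up to 4 tested genes per pathway list with the smallest p (all called ones in lists of 6 or fewer), the 2 most abundant markers per cell type, and the 6 genes most alike in pattern over 6 libraries with a mean log2 CPM of at least 3. Zbtb46, Pax5, Blk, H2-Ea-ps, Ifng, H2-K1, H2-D1, Dexi, Brd2 and Ctrl were named after their values were seen. Alternative scalings were RLE, upper quartile, library totals and TMM without secretory genes and Rn45s. Further alternatives were other filters, DESeq2 1.42.0, a replicate block, other denominators and leaving out each library. Libraries of 1 group differed by far more than sampling noise, at 14.6 or more of chi-square per degree of freedom, so none was treated as a duplicate deposit of another. That comparison does not bear on whether they came from separate animals.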

Additional observations from a re-analysis of the deposited data

How the results depend on the processing

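All 7 tested class II genes kept their direction and call under RLE and upper quartile factors, library totals, TMM without secretory genes, no filter, DESeq2 and each fit without 1 library; a filter of 10 CPM in 3 libraries left 5 to test, all called. Deviations from the group mean did not correlate between same-numbered libraries (r = 0.014, -0.030 and -0.0077). Whether same-numbered libraries were prepared together cannot be told from that. The replicate block called 7 class II genes, 5389 genes in all and 31 pathway genes, against 7, 5868 and 32 without it. Library totals called 12707 genes, 12654 of them higher. The 10 CPM filter called 2868 genes, 1443 higher, and 20 pathway genes, since it tests fewer genes. Leaving out 1 library gave 4464 to 6240 called genes, 2388 to 3411 called higher, and 28 to 35 pathway genes. The class II to leukocyte ratio was then 1.59 to 1.82 times. Ptprc as denominator gave 1.12, against 1.69, with only 10 Ptprc counts in control replicate 3. The cause of that gap was not tested.

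Over 58 named genes and 14 alternatives, 762 values kept direction and call, 17 reversed, 11 gained and 5 lost a call. On library totals, where the whole scale shifts up, the reversed log2 fold changes were 2.06 for Rfxap, 2.81 for Nfyb, 2.26 for Ctsl, 2.55 for Cd63, 0.51 for Psmb10, 1.85 for Kdr, 2.63 for Pecam1, 1.39 for Sox9, 3.13 for Spp1, 3.12 for Ins2 and 2.87 for Ins1. The 10 CPM filter gave 0.0689 for Spp1 and 0.16 for Ins2. Without 1 library, Ins2 ranged from -0.29 to 0.22, Ins1 from -0.56 to 0.0103 and Cr2 from -0.42 to 1.65, none called. Control libraries held few tags outside the secretory genes and Rn45s. That limits genes with few control counts, such as Ciita, H2-DMb2, H2-Oa, H2-Ob, H2-Eb2, Cd86 and Nkg7.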
